A study of Mus musculus with 6 samples.

Results

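The 8 genes described here, Actb, Actg1, Hprt, Tbp, Ppia, Ywhaz, Eef2 and Tubb5, are genes that laboratories commonly use as internal standards when they compare RNA levels between samples. They were chosen by name, and each was found on the array through the transcript identifier of its probes, which gave 15 of 39429 gene probes and 8 of the 19670 genes tested. On each of the 6 arrays the scanner output marked all 15 as well above background. ESC stands for 3 samples of the male mouse embryonic stem cell line VR15, which carries a Vasa::RFP transgene. Soma stands for 3 samples of male gonadal somatic cells taken at E13.5 from embryos of MCH x C57BL6/J background with an Oct5<delta>PE-GFP transgene. VR15 is a single line, while the soma samples are a mixture of the cell types of the fetal gonad. By its title the study is about how mouse primordial germ cells use energy, and neither group holds such cells by its label. The labels give the 3 samples of each group as replicates but do not name separate cultures or litters, so p-values measure the spread between these samples.

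A reference gene serves as a divisor: the signal of a gene of interest is expressed relative to it, on the assumption that the reference itself is the same in all samples. Reference genes are often picked from several pathways, so that they do not all move for the same reason. Of these, 3 serve the cytoskeleton: Actb and Actg1 encode the cytoplasmic beta and gamma actins and Tubb5 a beta tubulin of the microtubules. Hprt encodes the enzyme that returns hypoxanthine and guanine to the purine nucleotide pool, and it lies on the X chromosome, of which male cells carry a single copy. Tbp encodes the TATA-binding protein of the basal transcription machinery, Eef2 the factor that moves the ribosome along the messenger RNA, Ppia cyclophilin A, a peptidyl-prolyl isomerase, and Ywhaz the zeta form of the 14-3-3 adaptor proteins.

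Each array was hybridised with Cy3-labelled RNA made from 100 ng of total RNA of its sample. The scanner's processed signal was put on the log2 scale and the 75th percentile of the array was subtracted, so that a value of 0 is the 75th percentile. That percentile was 959 to 1016 signal units on the ESC arrays and 1245 to 1388 on the soma arrays. The mean log2 signal of 7 spike-in probes was 12.4 to 12.6 on ESC arrays and 12.6 to 12.7 on soma arrays. Scaling by these probes assumes that their RNA was added in the same amount to each sample. The number of arrays limits the precision. Soma 1 and 2 lay on a slide of their own, while soma 3 shared a slide with the 3 ESC arrays but was scanned apart from them, which means that the scan and the cell type cannot be told apart. Differences are ESC minus soma from a limma fit over all 19670 genes, with Benjamini-Hochberg adjusted p-values over all of them and the SE of that fit. Pluripotency and Sertoli markers followed the labels, while the germ cell, endothelial and smooth muscle lists went both ways. All 10 pluripotency genes rose in ESC, with a summed scaled level of 372 to 399.6 on ESC arrays and 9.20 to 12.1 on soma arrays. All 8 Sertoli genes were lower in ESC (0.470 to 0.626 on ESC arrays and 53.5 to 61.6 on soma arrays), and 4 of them were not well above background on any ESC array. The soma arrays also carried all 4 erythroid genes tested (0.109 to 0.131 on ESC arrays and 600.1 to 643 on soma arrays) and all 5 macrophage genes (0.580 to 0.8295 and 6.02 to 6.44). Of 5 germ cell genes 2 were higher in ESC, 2 were lower and 1 did not pass, with sums of 5.21 to 5.78 on ESC arrays and 2.79 to 5.78 on soma arrays. Of 5 endothelial genes 1 was higher in ESC, 3 were lower and 1 did not pass, with sums that overlapped (4.87 to 5.30 on ESC arrays and 4.65 to 6.57 on soma arrays). The part of this mixture in the values below was not tested, and in mixed samples fewer cells of a type and less RNA per cell cannot be told apart.

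With arrays scaled by the 75th percentile, 7 of the 8 reference genes were higher in ESC and none was lower at an adjusted p under 0.05, with a range from 1.07-fold for Actg1, which did not pass, to 8.47-fold for Hprt. Over all genes 84.9% passed in either direction, 46.6% higher in ESC and 38.3% lower, so that passing the test is what most genes on these arrays did. The counts for lists of related genes below stand beside these same shares, and no list was tested as a set. The median difference of the 8 genes was 0.61 on the log2 scale, against 0.14 over all genes. Quantile normalization turned some directions: 3 members passed as higher, 3 as lower and 2 did not pass, with a median of 0.013 against 0.023 over all genes, of which 83.7% passed, 42.5% as higher and 41.2% as lower. Under the 75th percentile the values of all 8 genes did not overlap between the groups, which also held for 87.2% of all genes. Tested against a log2 difference of 0.5 in place of 0, a limit chosen after seeing the data, Hprt, Tbp, Eef2 and Ywhaz passed as higher, which is 4 of 8, where 59.6% of all genes did, 32.0% as higher and 27.6% as lower. Hprt and Tbp alone were past both the test against 0 and a 2-fold difference, as were 47.5% of all genes.

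**Figure D1:**
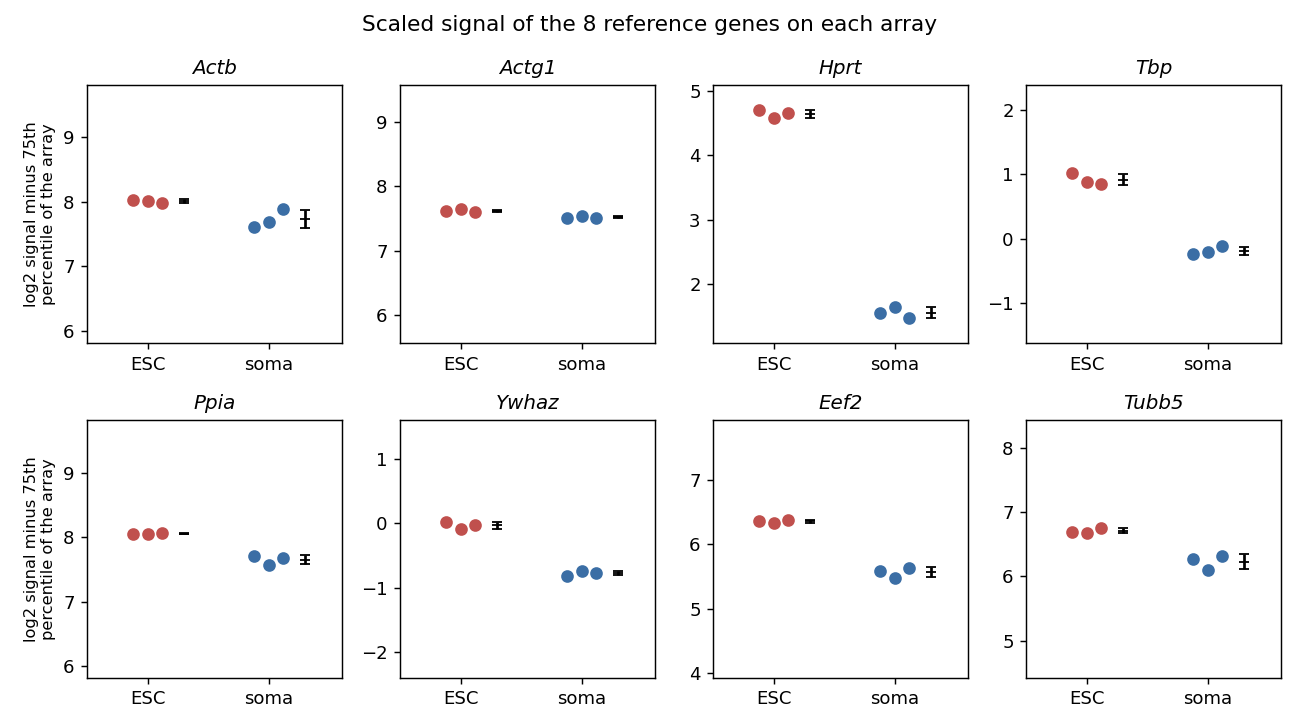
Scaled log2 signal (log2 signal minus the 75th percentile of the array) of each reference gene, with 1 point per array for ESC (red, left) and soma (blue, right), the mean as a dash and the SD as bars (n = 3 each). Every panel spans 4 log2 units; Hprt stands 3.08 units higher in ESC while Actg1 stands 0.10 higher.

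Hprt was the member that differed most. Its probe gave 26417, 23253 and 24245 signal units on ESC 1 to 3, and 3950.3, 4359 and 3458 on soma 1 to 3. The lowest ESC array was thus far above the highest soma array. The scaled log2 means were 4.65 ± 0.06 in ESC and 1.56 ± 0.09 in soma (SD, n = 3 each), a difference of 3.08 ± 0.07 (SE; 95% interval 2.92 to 3.25; limma adjusted p 4.03e-07) or 8.47-fold. Of all genes 87.7% had a smaller absolute difference. The Hprt probe is printed at 10 spots on each array, and the spots of an array varied by 1.47% to 3.55% (coefficient of variation) on ESC arrays and by 2.27% to 2.77% on soma arrays. Under quantile normalization the difference was 2.70, under spike-in scaling 2.86 and under scaling to the array median 3.28. Against soma 3 alone, on the shared slide, it was 3.17.

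Other genes of purine salvage were also higher in ESC. Of 8 genes tested 7 rose and none fell, with a median of 1.62. Prps1, which encodes an enzyme that makes the phosphoribosyl donor used by HPRT, rose by 3.05 ± 0.09 and Pnp, the gene of purine nucleoside phosphorylase, by 2.87 ± 0.07 (SE, n = 3 per group). Aprt, the adenine counterpart of Hprt, rose by 1.57, and Ampd2, an AMP deaminase gene, differed by 0.02 (adjusted p 0.765). Under quantile normalization the purine genes split into 7 that rose and 1 that fell.

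Tbp, the TATA-binding protein gene, gave 2053, 1802 and 1731 signal units on ESC 1 to 3, and 1136, 1209 and 1146 on soma 1 to 3. No ESC array came near a soma array. It rose by 1.10 ± 0.07 (SE, n = 3 per group; 95% interval 0.94 to 1.27; adjusted p 1.34e-05), or 2.15-fold, with 55.6% of genes showing a smaller absolute difference. A dimmer Tbp probe, printed at 10 spots, gave 155, 136 and 151 on ESC arrays against 71.1, 74.4 and 76.3 on soma arrays, a difference of 1.42 ± 0.08. Its spots varied more than those of Hprt, by 5.35% to 11.8% on ESC arrays and by 7.34% to 15.1% on soma arrays with outlying spots set aside. Both probes put Tbp higher in ESC, 2.15-fold on the bright one and 2.68-fold on the dim one.

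The partners of TBP moved the same way more often than not. Of 19 genes of TFIID, the complex that contains TBP, and of related basal factors, 16 rose, 1 fell and 2 missed the threshold (median 0.59). Of all genes 46.6% passed as higher and 38.3% as lower. Taf7 rose by 2.11 and Taf5 by 1.56, both subunits of TFIID, while Brf1, a subunit of the RNA polymerase III factor TFIIIB, fell by 0.95. Tbpl1, a TBP relative, stood at 0.14 (adjusted p 0.0425), at 0.05 under quantile normalization and at -0.09 under spike-in scaling. Under spike-in scaling 11 of the 19 passed as higher and 1 as lower, where 39.2% of all genes passed as higher and 43.4% as lower.

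Eef2 gave 83439, 78789 and 79726 signal units on ESC 1 to 3, against 64482, 62156 and 61424 on soma 1 to 3. Every ESC array was above every soma array, and the coefficient of variation was 3.05% in ESC and 2.55% in soma. It rose by 0.79 ± 0.06 (SE, n = 3 per group; 95% interval 0.65 to 0.93; adjusted p 2.85e-05), or 1.73-fold. Under quantile normalization the call was lost, at 0.06 ± 0.05 (adjusted p 0.267). Diphthamide is the modified histidine found in eEF2. Of 13 other genes with an elongation factor name or a part in making diphthamide, 12 rose and 1 fell (median 0.98). Dph5 rose by 2.25 and Eef1e1 by 2.11, while Dph3 fell by 1.75, and Eef2k, the kinase that restrains eEF2, rose by 0.997.

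Ywhaz was the member with the lowest signal on its brightest probe, at 1029, 918 and 947 signal units on ESC 1 to 3, against 764, 834 and 731 on soma 1 to 3. The lowest ESC array was above the highest soma array by a small margin before scaling. It rose by 0.74 ± 0.05 (SE, n = 3 per group; 95% interval 0.61 to 0.87; adjusted p 2.87e-05), or 1.67-fold. Its other probes gave 1.06 ± 0.06 and 0.56 ± 0.10, so that the 3 probes agreed in direction and ranged from 1.47-fold to 2.09-fold. Of the 6 other 14-3-3 genes 5 were higher in ESC and 1 was lower. Sfn, the sigma form found in epithelia, rose by 4.07 ± 0.18 and Ywhag by 1.36, while Ywhab fell by 0.41. Ywhah stood at 0.37 and, under quantile normalization, at -0.28.

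Ppia gave 269002, 258211 and 257869 signal units on ESC 1 to 3, and 278869, 264309 and 253763 on soma 1 to 3. These unscaled signals overlapped, with a ratio of 0.986 of ESC over soma. After scaling the means were 8.06 ± 0.01 in ESC and 7.65 ± 0.07 in soma (SD, n = 3 each), a difference of 0.41 ± 0.05 (SE; 95% interval 0.27 to 0.54; limma adjusted p 0.000554) or 1.33-fold. Under quantile normalization it stood at -0.04 (adjusted p 0.501). Of the 13 other cyclophilin genes 9 rose, 3 fell and 1 missed the threshold (median 0.74). Ppil1, a spliceosomal cyclophilin, rose by 1.52 and mitochondrial Ppif by 1.38, while Ppic fell by 2.14 and Nktr by 0.92.

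Actb, the most used of these standards, gave 265731, 250849 and 240620.5 signal units on ESC 1 to 3, and 261298, 285004 and 293783 on soma 1 to 3. The unscaled signals overlapped, and their ratio of ESC over soma was 0.902. The scaled log2 values were 8.03, 8.01 and 7.97 on the ESC arrays and 7.61, 7.68 and 7.88 on the soma arrays. Soma 3 was nearest to the ESC arrays, and the spread was wider in soma (SD 0.03 in ESC and 0.14 in soma). Actb differed by 0.28 ± 0.08 (SE, n = 3 per group; 95% interval 0.08 to 0.48; adjusted p 0.0186), or 1.21-fold. Under quantile normalization it stood at -0.15 and passed as lower (adjusted p 0.0403), and under spike-in scaling at 0.06 (adjusted p 0.508). The call did not hold when any of 4 arrays was left out, although the difference stayed between 0.22 and 0.28: without ESC 1 the adjusted p was 0.053, without ESC 2 it rounded to 0.05 from above, without soma 1 it was 0.0572 and without soma 2 it was 0.0593. Without soma 3 the difference was 0.36, and against soma 3 alone, on the slide that holds both groups, it was 0.12 (adjusted p 0.226). There 6 of the 8 members passed, all higher in ESC, where 76.5% of all genes passed (42.3% as higher and 34.3% as lower), and the other two were Actb and Actg1.

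Under scaling by the 75th percentile or the array median, Actg1 was the member with the smallest difference. Under spike-in scaling Actb was nearer to 0, and under quantile normalization Ppia, Eef2, Actb and Tubb5 were. Its brightest probe gave 198298, 194587 and 186128.5 signal units on ESC 1 to 3, and 242656, 258008 and 227543 on soma 1 to 3, so every ESC array was lower before scaling. After scaling the values were 7.61, 7.64 and 7.60 in ESC and 7.50, 7.54 and 7.51 in soma. Every ESC array was then slightly higher, and the SD of 0.02 in each group was among the smallest under this scaling. Of 16072 genes well above background on all arrays, 0.722% had a smaller pooled SD within groups. That share was 0.118% under scaling to the array median, but 28.2% under quantile normalization and 38.4% under spike-in scaling. The difference was 0.10 ± 0.04 (SE, n = 3 per group; adjusted p 0.0787), and its 95% interval ran from -0.01 to 0.21, or 0.993-fold to 1.15-fold. This does not show that Actg1 was the same in both cell types. The interval leaves out changes above 1.15-fold for this probe and this scaling alone, and other probes of the gene differed, as given next.

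The 5 probes of Actg1 did not give the same answer. In a fit over all 24150 kept probes, of which 84.7% passed, the brightest (A_55_P1970597) stood at 0.10 ± 0.04 (adjusted p 0.0833) and A_55_P2114993 at 0.05 ± 0.05 (adjusted p 0.409). A_55_P2008907 stood at -0.11 ± 0.06 (adjusted p 0.113). The other two passed as lower in ESC: A_52_P72237 at -0.28 ± 0.08 (adjusted p 0.0158) and A_55_P1985984 at -0.31 ± 0.07 (adjusted p 0.0052). On A_55_P1985984 the signals were 15852, 17104 and 17071 on the ESC arrays and 28611, 28879.8 and 26005 on the soma arrays. Whether a probe also binds the closely related RNA of Actb or of other actins was not tested, as probe sequences were not used here. The mean of the 5 probes gave -0.11 (adjusted p 0.0879). Actb, Hprt, Ppia, Eef2 and Tubb5 were each measured by 1 probe, so such disagreement could not be seen for them, and their intervals do not cover it.

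Relatives of the actins varied more than Actb and Actg1. Of the 4 muscle actin genes 1 was higher in ESC, 2 were lower and 1 did not pass. Acta2, the smooth muscle actin, fell by 2.07 ± 0.17 and skeletal Acta1 by 0.87 ± 0.20, while cardiac Actc1 rose by 1.10 ± 0.28 (SE, n = 3 per group). The smooth muscle list went both ways, with 3 of 6 genes lower in ESC, 2 higher and 1 that did not pass, and with sums of 25.3 to 42.1 on ESC arrays and 34.7 to 42.1 on soma arrays. Of 13 actin regulators 4 rose, 8 fell and 1 missed the threshold (median -0.63). Vil1, the actin-bundling protein villin, was at least 4.12-fold higher in ESC, a bound because no soma array was well above background, and profilin 1 gene Pfn1 rose by 1.45. Pfn2 fell by 2.81 and Cap2 by 2.28, though Cap2 was well above background on 1 of the 3 ESC arrays. Srf, whose protein drives actin genes in many cells, fell by 0.74, and its coactivator genes Mrtfa and Mrtfb by 0.58 and 1.35.

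Tubb5 gave 105231, 99742 and 103617 signal units on ESC 1 to 3, and 102993, 95696 and 99327 on soma 1 to 3, which overlap. It rose by 0.48 ± 0.07 after scaling (SE, n = 3 per group; 95% interval 0.30 to 0.65; adjusted p 0.000936), or 1.39-fold. Under quantile normalization it stood at -0.24 and passed as lower (adjusted p 0.00714). Of 6 other beta tubulin genes 5 were higher in ESC and 1 was lower (median 1.37). Tubb3, known from neurons, rose by 4.30 ± 0.10 and Tubb2b by 2.12 ± 0.06, while Tubb2a fell by 0.75 ± 0.05 (SE, n = 3 per group). Of 8 alpha and gamma tubulin genes 6 were higher and 2 were lower (median 1.06). Tuba3a rose by 3.07 and Tuba1c by 2.22, while Tubg2 fell by 1.75 and Tuba1a by 0.21, a call that was lost under scaling to the array median (-0.01).

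The answer to whether these genes are stable depended on how the arrays were made comparable. Scaling by the array median, by the 75th percentile or by the spike-in RNA subtracts 1 number per array, so it moves all genes by the same amount. The median of all genes stood at 0.34, 0.14 and -0.08 under these scalings and at 0.02 under quantile normalization, which forces the same distribution of signals on every array. Under scaling to the array median all 8 members passed as higher in ESC (85.2% of all genes passed, 52.0% as higher and 33.2% as lower). Under spike-in scaling 6 passed, all higher, with Actb at 0.06 (adjusted p 0.508) and Actg1 at -0.12 (adjusted p 0.202), where 82.6% of all genes passed, 39.2% as higher and 43.4% as lower. Under quantile normalization Hprt, Tbp and Ywhaz passed as higher, Actb, Actg1 and Tubb5 as lower, and Ppia and Eef2 did not pass.

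Relative to the median of all genes, Actg1 stood at -0.05, Actb at 0.14, Ppia at 0.26, Tubb5 at 0.33, Ywhaz at 0.60, Eef2 at 0.65, Tbp at 0.96 and Hprt at 2.94 under each scaling by 1 number per array. Under quantile normalization the same relative values were -0.44 for Actg1, -0.17 for Actb, -0.06 for Ppia, -0.26 for Tubb5, 0.76 for Ywhaz, 0.04 for Eef2, 1.05 for Tbp and 2.68 for Hprt. The members that moved most between these scalings were the bright ones. Actb, Actg1 and Ppia are among the brightest 1% of genes tested (197 genes) and Eef2 and Tubb5 among the next 4% (787 genes), by mean signal. In the first class the median difference of all genes was 0.53 under the 75th percentile and -0.01 under quantile normalization, and in the second 0.61 and -0.09. Hprt, Tbp and Ywhaz lie in dimmer classes, whose medians moved from the first to the other scaling by less: Hprt's class stood at 0.54 and 0.10, and the class of Tbp and Ywhaz at 0.14 and 0.07. Actb, Actg1, Ppia and Tubb5 thus stood below the median of equally bright genes under either scaling. For Ppia the gap under quantile normalization was small, at -0.035 ± 0.046 (SE) against -0.015 for its class. No spot on any array was saturated.

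**Figure D2:**
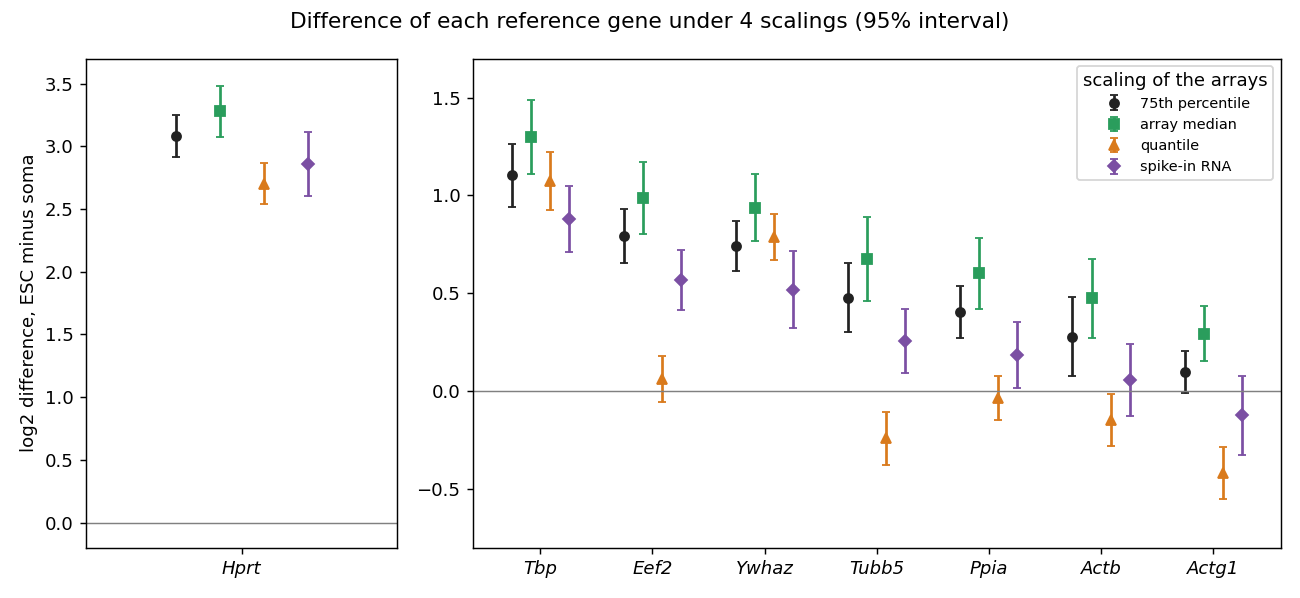
Log2 difference of each reference gene, ESC minus soma, under 4 scalings of the arrays, with 95% intervals of the limma fit (n = 3 per group; Hprt has an axis of its own). Under quantile normalization Actb, Actg1 and Tubb5 lie below 0, while Hprt, Tbp and Ywhaz lie above 0 under all 4 scalings.

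Taken over all 6 arrays, the SD of a gene joins its spread within groups and its difference between them. Under the 75th percentile it was 0.06 for Actg1, 0.18 for Actb, 0.23 for Ppia, 0.27 for Tubb5, 0.41 for Ywhaz, 0.44 for Eef2, 0.61 for Tbp and 1.69 for Hprt. The median over the 16072 genes well above background on all arrays was 0.45. Actg1 had a larger SD than 1.51% of those genes and Hprt than 94.4%. Under quantile normalization the smallest SD belonged to Ppia at 0.04 and Eef2 at 0.05, with Actg1 at 0.23, so the order of the members changed with the scaling. Under the 75th percentile, neighbours in the order by difference that were close to each other were Ywhaz and Eef2, and Ppia and Tubb5. Under quantile normalization Ywhaz stood at 0.79 and Eef2 at 0.06. At its largest under the 75th percentile, median and quantile scalings, the SD placed Actg1 at rank 1682 of 11956 named genes, counted from the smallest, Actb at 2234, Ppia at 3153 and Hprt at 11212. The 5 named genes with the smallest such SD were Atxn7l1, Thap6, Capn7, Tmem177 and Zbtb7a, at 0.06 to 0.07. This is a description, since they were picked for that value. Under spike-in scaling they stood at -0.30 to -0.35, so their stability belongs to the 3 scalings used to pick them.

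**Figure D3:**
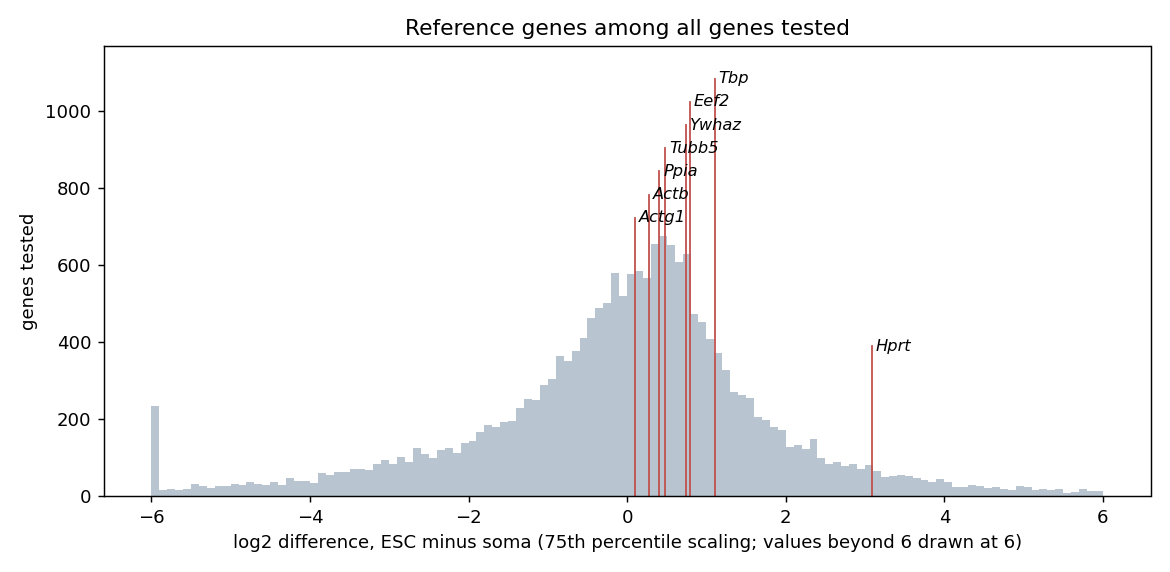
Histogram of the log2 difference, ESC minus soma, of all 19670 genes tested under 75th percentile scaling (x axis, log2 units; y axis, number of genes), with a red line at each reference gene. The other 7 genes lie between 0.10 and 1.10, left of Hprt at 3.08.

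The ratio of a pair of members within an array does not depend on any scaling by 1 number. Of the 28 pairs 24 had ratios that did not overlap between ESC and soma. The share over all gene pairs was not computed, so whether this count sets the members apart from other genes was not tested. The 87.2% of single genes that did not overlap is a share of scaled signals and not of ratios. The two-sided exact permutation test cannot go below 0.1 with 3 arrays against 3, and its smallest value adjusted over the 28 pairs was 0.117, so no pair could pass on it. The ratio of Ywhaz to Eef2 changed least, by -0.05 on the log2 scale, and its values overlapped (exact permutation p 0.6). Ppia to Tubb5 changed by -0.07 (p 0.3 by the exact test), Actb to Ppia by -0.13 (p 0.3, exact) and Actb to Actg1 by 0.18 (p 0.2, exact). In the limma fit with each array scaled by Actb, Ppia differed by 0.13 (adjusted p 0.29), Actg1 by -0.18 (adjusted p 0.137) and Tubb5 by 0.20 (adjusted p 0.106). These p-values do not show that the pairs moved alike. The widest pair was Actg1 and Hprt, whose ratio changed by -2.98, or 7.92-fold. The 8 pairs that changed at least 2-fold were the 7 with Hprt and the pair of Actg1 and Tbp (2.01-fold). Under quantile normalization, where arrays are not scaled by 1 number, the ratio of Ywhaz to Eef2 changed by 0.72.

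**Figure D4:**
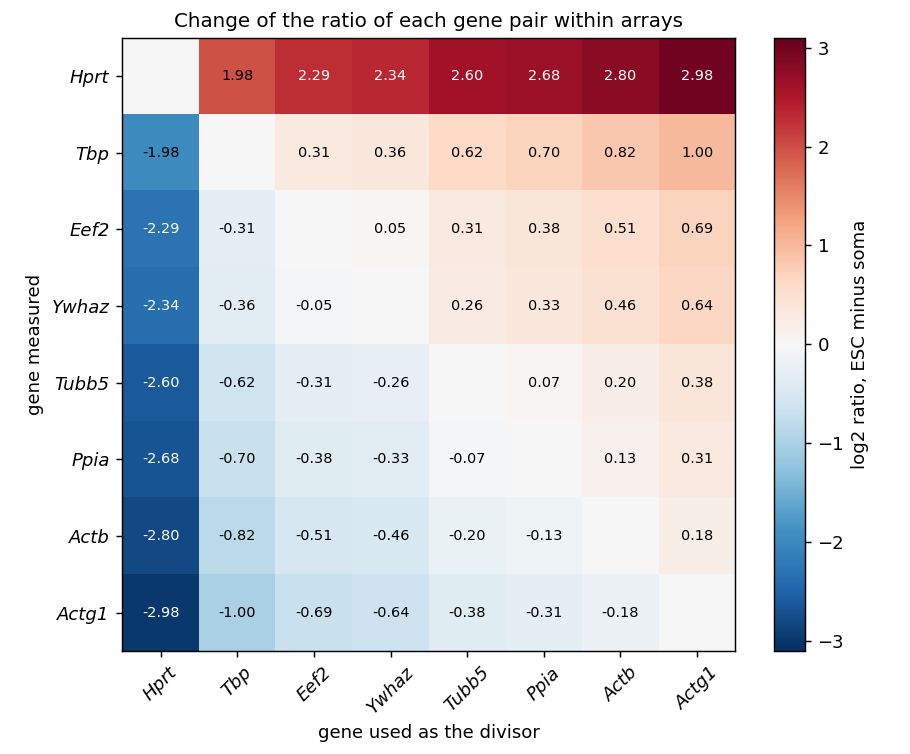
Change of the log2 ratio of each pair of reference genes, ESC minus soma, for the gene in the row divided by the gene in the column (means of 3 arrays per group, 75th percentile scaling). The row of Hprt runs from 1.98 over Tbp to 2.98 over Actg1, and Ywhaz over Eef2 differs by 0.05.

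Used as the only standard, the members gave different accounts of the same arrays. By construction such a scaling takes the member's own difference from that of every gene. The order of the counts thus follows from the differences given above and is no further result. With each array scaled by Actg1, 8571 genes passed as higher in ESC and 8032 as lower, and with Actb the counts were 7106 and 8681. With Ppia they were 6597 and 9676, with Tubb5 5959 and 9943, with Ywhaz 4878 and 11891, and with Eef2 4624 and 12246. With Tbp 3479 genes passed as higher and 14066 as lower. With Hprt 775 passed as higher and 18282 as lower, which is 4.07% of the calls in the first direction, against 54.9% under the 75th percentile. The mean of all 8 members gave 4391 higher and 12913 lower (22.3% and 65.6% of all genes, together 88.0%), and under it 2 members passed as higher, Hprt and Tbp, 5 as lower and Eef2 did not pass. Against that mean Hprt stood at 2.21 and Tbp at 0.23, while Actg1 stood at -0.77, Actb at -0.59, Ppia at -0.47, Tubb5 at -0.39, Ywhaz at -0.13 and Eef2 at -0.08 (adjusted p 0.151). By construction these 8 differences balance to 0, so the value of Hprt moves the others down.

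**Figure D5:**
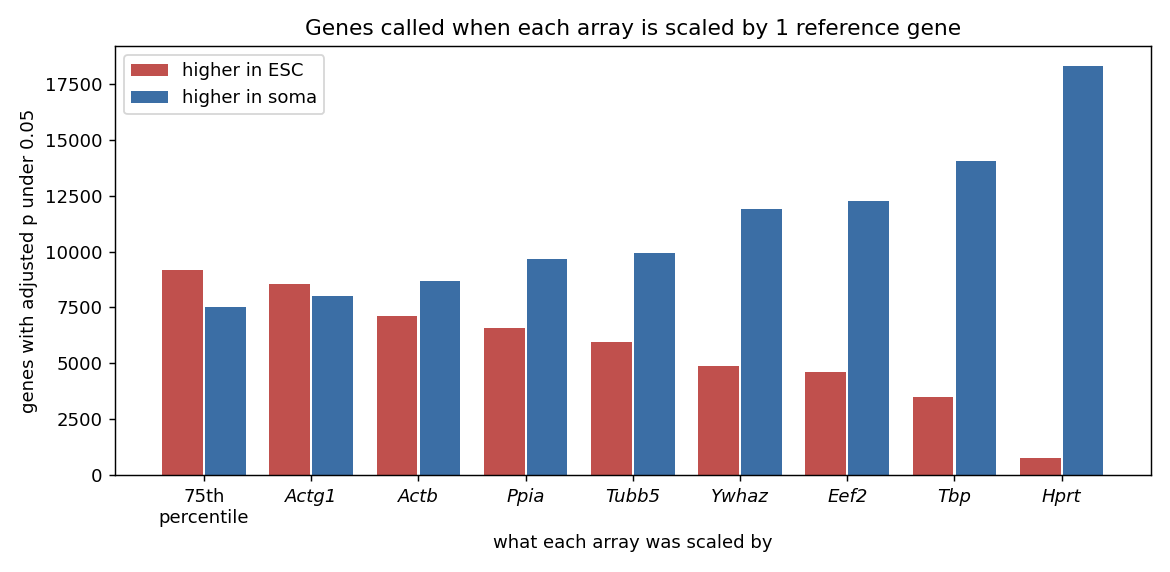
Number of genes with a limma adjusted p under 0.05 (y axis) that were higher in ESC (red, left bar) or higher in soma (blue, right bar) when the arrays were scaled by the 75th percentile or by 1 reference gene (x axis). The red bar is 9172 under the 75th percentile, 8571 with Actg1 and 775 with Hprt.

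Other genes in common use as standards were no more uniform. Of 24 measured, 18 were higher in ESC, 5 were lower and 1 did not pass, with a median of 0.66, and under quantile normalization 12 were higher and 9 lower. Tfrc, the transferrin receptor gene, rose by 3.31 ± 0.06 (9.95-fold), Pgk1, of glycolysis, by 2.99 ± 0.05 (7.97-fold) and Hsp90aa1 by 1.98 ± 0.07 (SE, n = 3 per group). Cyc1 rose by 1.30, Gapdh, also of glycolysis, by 1.19 and the ribosomal protein gene Rpl19 by 1.08. Alas1, of haem synthesis, fell by 2.41 ± 0.08, lysosomal Gusb by 1.37 ± 0.06 and B2m, of the class I antigen complex, by 0.72 (SE, n = 3 per group). Psmb2, Atp5b, Rps18 and Hsp90ab1 lay between 0.81 and 0.93, Ipo8 at 0.695, Rpl13a at 0.62, Rplp0 at 0.54, Rpl32 at 0.49, Canx at 0.46 and Eef1a1 at 0.40. Sdha stood at 0.16 (adjusted p 0.0493), Eif4a2 at 0.06 (adjusted p 0.26) and Top1 at -0.19 (adjusted p 0.0094). Against soma 3 alone the calls of Sdha, Eef1a1 and Top1 were lost, though a single soma array gives no spread within soma.

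For each of these genes and the 8 members, the mean SD of its log2 ratio to the others over the 6 arrays was computed, where a small value means a gene that keeps its ratios. It was smallest for Rpl13a at 0.43, Rplp0 at 0.44 and Ipo8 at 0.44, followed by Ywhaz and Eef2 at 0.44 each, values that lie close together. The ranks hold for any scaling by 1 number per array and were not computed under quantile normalization. There the differences of these genes parted: Ywhaz stood at 0.79, Ipo8 at 0.58, Rplp0 at 0.07, Eef2 at 0.06 and Rpl13a at -0.10. Tubb5 came at rank 9 of 32, Ppia at 11, Actb at 16, Tbp at 18, Actg1 at 20 and Hprt at 30. Actg1, the member with the smallest difference under the 75th percentile, is thus not the member that kept its ratios best, since most of these genes stood higher in ESC. Of 496 pairs the ratio that varied least was Actg1 to Eif4a2 (SD 0.04), followed by Eef2 to Hsp90ab1 and Ywhaz to Ipo8, and these were picked for that value.

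Over all named genes well above background on the 6 arrays, the gene with the profile nearest to each member was found by the root mean square distance of the centred log2 values. Rack1 was nearest to Ppia, at 0.01, and Ndufs1 to Ywhaz, Diaph2 to Eef2, Eif4a1 to Tbp, Fkbpl to Tubb5, Efr3b to Actg1, Etv5 to Hprt and Rxylt1 to Actb followed at 0.01 to 0.02. Each search covered 11955 genes and 6 arrays, where the values of each group lie close together, so the distance mostly compares the size of the difference. Etv5 differed by 3.05, next to 3.08 for Hprt, and Rxylt1 by 0.26, next to 0.28 for Actb.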

How the data were processed

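RNA of each sample was labelled with Cy3 and hybridised to 1 array, per the labels' protocols. The measurement used is the processed signal, an intensity that the authors' scanner software, Feature Extraction 10.7.3.1, corrected for background within an array, per the file headers. The deposited series matrix is a second version on a log2 scale that no source describes. Set against the scanner values, it equals the log2 signal less the array's 75th percentile and the probe's median over arrays, within 0.01 for at least 99.97% of probes. Its column medians were 0.161, -0.0878 and 0.0634 for ESC 1 to 3 and 0.0549, -0.251 and -0.0654 for soma 1 to 3.

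Spots of a probe were averaged as log2 values without control or outlier-marked spots. Probes well above background on all arrays of at least 1 group were kept (24150 of 39429), and the brightest kept probe stands for a gene. Symbols were matched by transcript through a RefSeq table of GRCm38.p6 (66.1% of probes; 14199 of 19670 genes tested). The array's grid names another build, so no coordinates are given. The test was limma 3.58.1 (R 4.3.3), two-sided, adjusted by Benjamini-Hochberg across the 19670 genes, with 0.05 as the threshold, and it was tested on simulated data. A gene below background throughout a group has a bound, set on each array by its own value or, if higher, the faintest signal that is well above background. Alternatives were scaling by array median, quantiles, 7 spike-in probes or members, normexp (offset 50, on median signals), the series matrix, other filters, the mean of a gene's probes, a variance trend, slide, scan and replicate blocks, and single arrays left out. Named are the members, the 2 largest passing differences each way of each related list, the measured common reference genes (some are not reported here), each member's nearest gene and the 5 genes of smallest SD. Srf, Mrtfa, Mrtfb, Aprt, Ampd2, Eef2k, Ywhah, Tbpl1 and Tuba1a, where outside that rule, were named after their values were seen. The members and lists were chosen with earlier results of these data known.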

Additional observations from a re-analysis of the deposited data

How the results depend on the processing

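The count of reference genes called was 6 to 8 of 8 under the alternatives that tested all 8 against 0, 4 to 7 of the other 7 with arrays scaled by 1 member, and 4 of 8 against a log2 difference of 0.5. Leaving out 1 array at a time gave 6 to 7 members called, 16052 to 16586 genes called and a median of the members of 0.58 to 0.63. The median of the members, 0.61, was 0.81 under scaling to the array median, 0.57 under normexp, 0.013 under quantile normalization, 0.39 when arrays were scaled by spike-ins, and 0.56 with the slide as a fixed block and with the shared slide alone. Genes called numbered 16709 and ranged from 11729 against a log2 difference of 0.5 to 19057 with arrays scaled by Hprt. The share of calls that were higher in ESC, 54.9%, was 61.0% under the array median, 47.4% under spike-in scaling and 50.8% under quantile normalization.

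Signs of these genes, probes and ratios changed, and the cause was not tested. Under quantile normalization Actb stood at -0.15, Actg1 at -0.42, Ppia at -0.0352, Tubb5 at -0.24, Rpl13a at -0.0998, Sdha at -0.32, Eef1a1 at -0.32, Canx at -0.14, Eif4a2 at -0.52, Rpl32 at -0.11, Ywhah at -0.28, Ampd2 at -0.26, Rack1 at -0.12, Tmem177 at 0.0331, Zbtb7a at 0.0489 and the Actg1 probe A_55_P2114993 at -0.66, while the Actb to Tubb5 ratio stood at 0.0902, the Ppia to Tubb5 ratio at 0.20 and the Ywhaz to Eef2 ratio at 0.72. Under spike-in scaling Actg1 stood at -0.12, its probe A_55_P2114993 at -0.17, Sdha at -0.0638, Eif4a2 at -0.16, Ampd2 at -0.21, Tbpl1 at -0.0872 and Efr3b at -0.11. Under scaling to the array median Top1 stood at 0.0084, Atxn7l1 at 0.0938, Thap6 at 0.0941, Capn7 at 0.0725, Tmem177 and Zbtb7a at 0.12 and the Actg1 probe A_55_P2008907 at 0.0852. The mean of its probes put Actg1 at -0.11. Against the mean of the other 7 members, which by construction is a fixed multiple of the value against the mean of all 8 and was chosen after seeing the data, Actb stood at -0.68, Actg1 at -0.88, Ppia at -0.53, Ywhaz at -0.15, Eef2 at -0.0931 and Tubb5 at -0.45.

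With the replicate block, the number in the titles, 7 members and 16476 genes were called and no member's call changed. Deviations of samples with the same number correlated at -0.05, 0.07 and 0.03 across genes, so the numbers give no pairing. With the scan as a random block 7 members and 16798 genes were called. No scan held arrays of both groups, so this block cannot take a scan effect out of the difference. All member probes were marked well above background on every array, but the mark does not show that background left their folds as they were: under normexp Tbp stood at 1.06 and Actg1 at 0.0560.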

Other observations

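Gapdh, a glycolysis gene that is itself a common standard, shows how far the choice of a reference gene carries. It differed by 1.19 ± 0.05 under the 75th percentile (SE, n = 3 per group), and by 2.08 when the mean of its probes was taken. Scaled by Actg1 it stood at 1.09, by Actb at 0.91, by Ppia at 0.79, by Tubb5 at 0.71, by Ywhaz at 0.45 and by Eef2 at 0.40, all of which passed in the limma fit over all genes. Scaled by Tbp it stood at 0.09 ± 0.07 (adjusted p 0.257) and scaled by Hprt at -1.89 ± 0.09 (adjusted p 6.16e-07). On its brightest probe, the same arrays thus gave Gapdh as higher in ESC, as not passing, or as lower in ESC, according to the standard. By construction each of these values is 1.19 less the member's own difference. The mean of its probes was not scaled by the members, so these outcomes hold for that probe alone. This gene was chosen after its values were seen.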
